A study of Mus musculus with 288 samples.

Results

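The hearts of mice kept in normoxia were compared between the subjective day and the subjective night. The day window held the 12 libraries taken at 1:30, 4:30, 7:30 and 10:30, and the night window held the 12 libraries taken at 13:30, 16:30, 19:30 and 22:30. These are 24 of the 288 libraries of the series, and the comparison covered the 7966 of 35904 genes whose mean over the 24 libraries was at least 5 TPM, a transcript abundance scaled for transcript length and library size. All mice were male, wild-type C57BL/6J animals of 8 weeks. They had spent 7 days in room air under a cycle with equal spans of light and dark (12 h each), and were then held in constant darkness for 2 days, with tissue taken every 3 hours on the second of these days from 3 mice per time point. A pair of further sets of 24 libraries served for comparison and came from mice of the same sex, strain, age and lighting. One was the heart after 7 days of intermittent hypoxia (IH, repeated falls of inspired oxygen during the light phase) and the other was the muscle in normoxia. The sample labels give the hour without naming its scale and give the tissue only as heart, with no chamber.

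The circadian clock of mammals is a feedback loop of transcription. CLOCK and ARNTL (also called BMAL1) bind E-box sequences and drive the Per and Cry genes, whose proteins then repress them. The REV-ERB receptors (Nr1d1, Nr1d2) set the rhythm of Arntl, and the PAR bZIP factors (Dbp, Tef, Hlf) with their opponent Nfil3 pass the rhythm on to output genes through D-box sequences. In the heart the clock is known to pace ion channels and the use of fuels, and in constant darkness it runs without light cues, while mice remain active in the subjective night.

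The stretches before the start sites of 4 clock genes are given because these genes carry the results below, Nr1d1 with the only called difference between the windows and Cry1, Per1 and Tef as a night-high gene and as genes that peaked near the change of window. The sequences are from RefSeq on build GRCm38.p6, 5′ to 3′ on the gene's strand, 250 bases up to the base before the start. Capitals mark the E-box CACGTG, which reads the same on both strands. The regions are chr11:98775378-98775627 (minus strand) for Nr1d1, chr10:85185055-85185304 (minus strand) for Cry1, chr11:69098699-69098948 (plus strand) for the first of the Per1 start sites, and chr15:81802423-81802672 (plus strand) for the first of those of Tef.
Nr1d1: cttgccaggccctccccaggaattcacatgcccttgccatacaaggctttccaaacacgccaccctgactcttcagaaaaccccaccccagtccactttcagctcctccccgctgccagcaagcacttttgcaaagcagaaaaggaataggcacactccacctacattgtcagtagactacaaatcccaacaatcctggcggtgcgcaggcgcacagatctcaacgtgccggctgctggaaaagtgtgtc
Cry1: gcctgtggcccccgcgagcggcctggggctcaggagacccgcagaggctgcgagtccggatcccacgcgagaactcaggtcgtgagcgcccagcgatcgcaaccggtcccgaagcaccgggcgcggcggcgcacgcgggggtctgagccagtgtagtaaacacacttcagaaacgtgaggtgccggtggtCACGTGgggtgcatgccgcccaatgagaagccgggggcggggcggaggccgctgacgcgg
Per1: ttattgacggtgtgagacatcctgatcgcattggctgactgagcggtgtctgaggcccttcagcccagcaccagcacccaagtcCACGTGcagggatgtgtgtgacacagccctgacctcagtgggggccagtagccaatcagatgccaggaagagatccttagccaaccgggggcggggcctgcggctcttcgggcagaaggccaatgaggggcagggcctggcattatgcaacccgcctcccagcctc
Tef: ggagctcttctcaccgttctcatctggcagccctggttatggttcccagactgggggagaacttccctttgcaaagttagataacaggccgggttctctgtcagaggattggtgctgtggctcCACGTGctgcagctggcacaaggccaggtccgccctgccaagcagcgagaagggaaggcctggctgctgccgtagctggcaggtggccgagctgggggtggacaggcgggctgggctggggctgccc

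Cry1, Per1 and Tef each held 1 E-box in the window printed, and the letters CACGTG did not occur in that of Nr1d1. Of the 27025 genes with a window of this length, 6.86% held the E-box, and of the 6267 tested genes with a window 10.2% did. Among 24 members of the clock and output lists with a window, 7 held it, namely Bhlhe41, Ciart, Cry1, Fkbp5, Per1, Tef and Tspan4. The D-box TTATGTAA, searched on both strands, occurred in 0.977% of genes with a window and, among these 24, in Per3. The response element of the REV-ERB receptors was also searched on both strands, but only in 1 strict form. That form was found in 0 of the 24 and in 0.211% of genes with a window. Sites that depart from it, or that lie outside the window, were not counted. The count of 0 therefore does not show that these genes lack the element.

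A pair of libraries stood apart from the others. In day 7:30 replicate 3 and night 19:30 replicate 3, the summed TPM of 6 lymphocyte and thymus markers was 1014 and 653, against 1.66 to 11.3 in the other 22 libraries. Dntt, an enzyme of developing lymphocytes in the thymus and marrow, reached 402 and 254 TPM in these libraries. Their median correlation with the other libraries was 0.792 and 0.857, against at least 0.954 elsewhere. Of the 7966 genes tested, 369 reached a mean of 5 TPM only through these 2 libraries, 25 of them segments of T cell receptor genes. Lung markers also summed to 2221 TPM in night 19:30 replicate 2, 1718 in day 7:30 replicate 3, 1098 in night 13:30 replicate 3 and 576 in night 19:30 replicate 3, and to between 245 and 332 TPM in the other 20. Nearly all of the sum in the other 20 was a single marker, Hopx, at 243 to 332 TPM. In the lung-rich libraries, in the order given, Scgb1a1 reached 1905, 1552, 685 and 361 TPM. Sftpc reached 74.4, 3.19, 122 and 6.89 TPM there. In the other 20 libraries Scgb1a1 was at most 1.30 TPM and Sftpc at most 1.37 TPM. Both markers thus rose in the same libraries, but in different proportions. In bulk tissue, fewer cells of a type and less RNA per cell cannot be told apart.

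**Figure D1:**
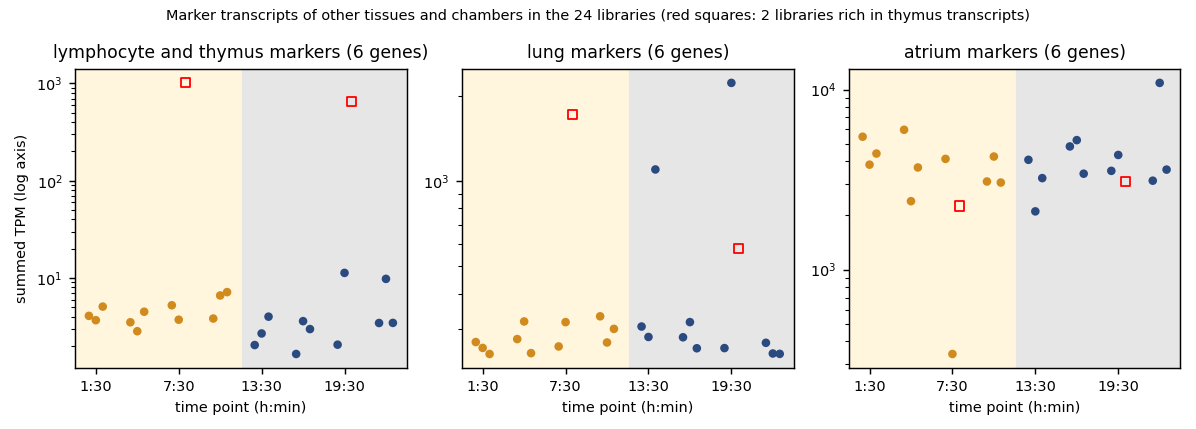
Summed TPM (log axis) of 6 lymphocyte and thymus, 6 lung and 6 atrium markers in each of the 24 libraries by time point, with the day window in yellow and the night window in grey. The red squares are the 2 libraries rich in thymus transcripts, at 1014 and 653 TPM, and the lowest atrium sum is 340 TPM at 7:30.

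The heart label was checked against its markers. The 8 cardiomyocyte markers summed to between 12298 and 32781 TPM (median 22975), and the atrium markers ranged from 340 TPM in day 7:30 replicate 2 to 10885 TPM in night 22:30 replicate 2. The 5 erythroid markers, mostly haemoglobin genes, summed to more, between 25297 and 134531 TPM (median 57817). Of 17 comparisons of the windows, covering the number of genes detected and 16 marker lists, 0 passed a 2-sided permutation test of 100000 resamples after Benjamini-Hochberg adjustment, and 1 fell within 0.05 before it. The lowest p belonged to 6 liver markers, at 21.9 to 70.3 TPM by day (median 37.1) and 16.3 to 43.6 TPM by night (median 26.3), with a permutation p of 0.00972 and an adjusted p of 0.165.

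Between the windows, 1 gene passed the test. Nr1d1, which encodes the repressor REV-ERBα and lies at chr11:98767932-98775333 on the minus strand (GRCm38), rose by day. Its TPM ranged from 13.4 to 55.4 with a median of 25.4 in the 12 day libraries, and from 3.61 to 14.8 with a median of 5.24 in the 12 night libraries. The ranges overlapped only in that the lowest day library, at 1:30, lay below the highest night library, at 13:30. The log2 difference (day minus night, on scaled TPM + 0.5) was 1.99 ± 0.247 (SE), or 3.96-fold, with a Benjamini-Hochberg adjusted p of 0.000144 in limma, and 1.94 ± 0.248 without the 2 thymus-rich libraries (adjusted p = 0.000207). The call was lost when the libraries numbered replicate 1 (adjusted p = 0.0655) or replicate 2 (adjusted p = 0.0642) were left out, and 0 genes were called there. A gene was called at an adjusted p of at most 0.05, so 0.0126% of the 7966 genes were called, and 1 gene was called when a 1.5-fold difference was also required. An unadjusted p within 0.05 was found for 325 genes (4.08%). The median log2 difference of all genes tested was -0.0049, and 3807 genes were higher by day against 4159 by night, a split that turned to 4479 against 3487 on TPM as deposited. Of all genes tested, 0 (0%) had windows that did not overlap.

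Without the 2 thymus-rich libraries the test called 12 genes (0.151%), 6 higher by day (0.0753%) and 6 higher by night (0.0753%), Nr1d1 among them. The names of the other 11 were chosen after their values were seen. By day, Tmem86a, Tcp11l2, H3f3b, H1f0 and Znhit6 rose by log2 differences between 0.24 and 0.39, and by night Angptl7, Cry1, Gsta3, Dnaja1, Hsph1 and Slc31a2 rose, with day-minus-night values between -0.93 and -0.29. An unadjusted p within 0.05 was found for 631 genes (7.92%). With the lower limit set at a mean of 1 TPM, which admitted 12831 genes, 2 genes (0.0156%) were called over 24 libraries and 15 (0.117%) over 22.

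The activators Arntl, Clock, Npas2, Rora and Rorb had means below 5 TPM. Arntl, the partner of CLOCK, had time-point means of 7.65 TPM at 1:30 and 7.46 TPM at 22:30, and of 0.594 and 0.475 TPM at 10:30 and 13:30. Its 2 highest values came from the thymus-rich libraries, 11.2 TPM in day 7:30 replicate 3 and 10.8 TPM in night 19:30 replicate 3. The other libraries of those hours held 1.81 to 2.26 and 3.18 to 4.49 TPM. Its other high values lay on both sides of 0:00, in both windows, and its day and night medians were 3.42 and 2.63 TPM. The Arntl fits given here include both thymus-rich libraries. In the fit that admitted genes from a mean of 1 TPM, which called 86 genes for a wave (0.67%) over 24 libraries and 299 (2.33%) over 22, its log2 difference was 0.19 ± 0.460 with an adjusted p of 1.00 in limma. A cosine of 24 hours fitted to the same libraries gave a log2 amplitude of 1.51 with a peak at 0.38 h (adjusted p = 4.16e-07), and Npas2, which can replace CLOCK, had an amplitude of 0.98 with a peak at 0.693 h (adjusted p = 5.89e-07). Clock itself had an amplitude of 0.37 and did not pass in that fit (adjusted p = 0.0932), but did without the 2 libraries (adjusted p = 0.0166). Rora, at an amplitude of 0.08, did not pass in either.

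The cosine fit asked which genes followed a 24-hour wave, whatever its phase. A gene that peaks in the middle of the day window has a day-minus-night difference of 1.31 times its amplitude at these time points, whereas a gene that peaks at the change of window, at 12 h, has a difference of 0. The fit called 54 of 7966 genes (0.678%), with 460 below 0.05 before adjustment, and called 175 genes (2.2%) without the 2 thymus-rich libraries, including the same 54. Nr1d1 was 1 of the 54. Of the 54, 30 peaked between 9 and 15 h and 12 between 21 and 3 h, around the changes of window, while 3 peaked in the middle of the day (Fscn1, Nr1d1 and Tmem86a) and 9 in the middle of the night. Of the 49 with a promoter window, 12 held the E-box (24.5%), 1 the D-box (Coq10b) and 1 the strict REV-ERB element (Leo1). Without the 2 thymus-rich libraries the share near 12 h was smaller, and a similar share of the called genes peaked near 0:00. Of the 175 genes called there, 61 (34.9%) peaked between 9 and 15 h and 65 (37.1%) between 21 and 3 h. A further 19 (10.9%) peaked in the middle of the day and 30 (17.1%) in the middle of the night.

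**Figure D2:**
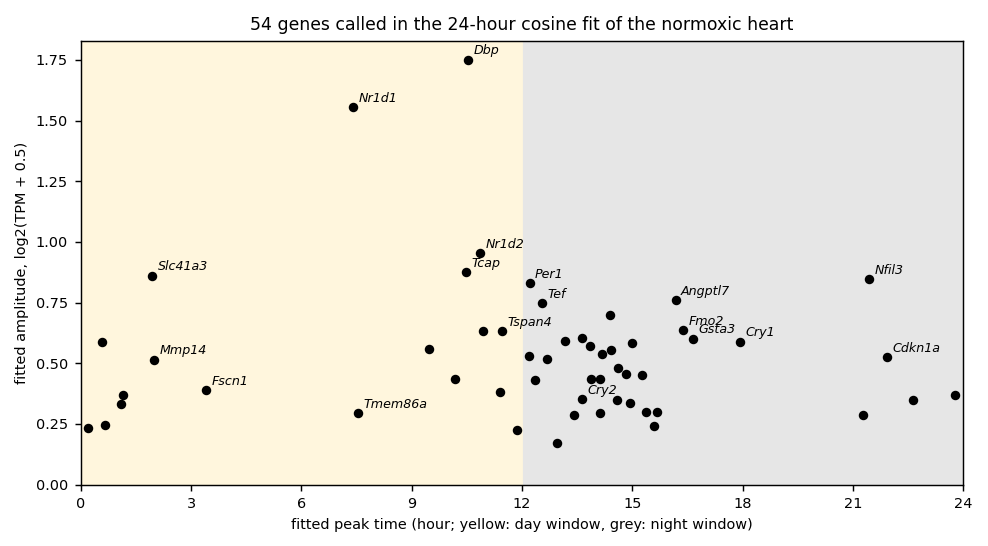
Fitted peak time (hours) and log2 amplitude of the 54 genes called in the 24-hour cosine fit, 1 point per gene, with the day window in yellow and the night window in grey. Points crowd around 12 h, with 30 between 9 and 15 h, and Dbp at 10.5 h has the highest amplitude, 1.75.

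The repressors of the clock held the one call between the windows. Of 10 members, 6 were tested, 1 was called between the windows (Nr1d1) and 6 were called in the cosine fit. The median log2 difference of the 6 was 0.12. On TPM as deposited 3 of the 6 kept the cosine call (Nr1d1, Nr1d2 and Per1), and Cry1, Cry2 and Bhlhe40 lost it, with adjusted p-values of 0.613, 1.00 and 0.381 in limma. Over all 13 alternatives the wave was called in 8 for Cry1, 9 for Cry2 and 9 for Bhlhe40. Cry1, a cryptochrome that blocks CLOCK and ARNTL, ranged from 1.45 to 15.2 TPM by day (median 3.18) and from 4.54 to 13.5 TPM by night (median 6.21). Its highest value in each window came from a thymus-rich library, and in the other 22 libraries the day values ended at 4.64 TPM and the night values began at 4.54 TPM. Its log2 difference was -0.82 ± 0.171 with an adjusted p of 0.0747 in limma over 24 libraries, and -0.89 ± 0.108 with an adjusted p of 0.000187 over the 22. Cry1 peaked at 17.9 h with an amplitude of 0.59 (adjusted p = 0.0442).

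Cry2, the other cryptochrome, ranged from 2.69 to 10.2 TPM by day (median 5.82) and from 4.63 to 9.59 TPM by night (median 6.78). Its log2 difference of -0.21 ± 0.132 did not pass (adjusted p = 1.00 in limma), and it peaked at 13.6 h with an amplitude of 0.35 (adjusted p = 0.03). Of the 12 day libraries, 3 lay below the lowest night library and 1 above the highest.

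Per1, a period gene that light and glucocorticoids also induce, spanned 1.98 to 11.4 TPM by day (median 4.62) and 1.84 to 10.01 TPM by night (median 5.76). The windows covered the same range, and the log2 difference was -0.03 ± 0.279. The wave was nevertheless called, with a peak at 12.2 h and an amplitude of 0.83 (adjusted p = 0.000383 in limma). Its time-point means ran from 2.27 TPM at 1:30 to 9.15 TPM at 7:30, and the sign of its log2 difference turned under several alternatives. Per2 and Per3 had means below 5 TPM and peaked at 13.8 and 12.3 h in the fit from 1 TPM, with amplitudes of 1.35 and 1.10 and adjusted p-values of 4.16e-07 and 1.31e-06.

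Nr1d2, the second REV-ERB receptor, ranged from 9.89 to 46.2 TPM by day (median 22.8) and from 6.16 to 35.5 TPM by night (median 16.5). Its log2 difference of 0.41 ± 0.289 did not pass (adjusted p = 1.00 in limma), while its peak at 10.9 h with an amplitude of 0.95 did (adjusted p = 7.15e-06). Nr1d1 peaked earlier, at 7.41 h, with an amplitude of 1.56 (adjusted p = 1.98e-08) and had its highest time-point mean, 37.7 TPM, at 7:30.

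The DEC repressors and Ciart peaked within the hours before the change of window. Bhlhe40, a repressor at E-boxes, ranged from 4.74 to 17.5 TPM by day (median 9.82) and from 5.18 to 15.1 TPM by night (median 8.19), a log2 difference of 0.27 ± 0.154 that did not pass (adjusted p = 1.00), with a peak at 10.2 h (amplitude 0.44, adjusted p = 0.011 in limma). Bhlhe41 and Ciart, a repressor that binds the CLOCK and ARNTL complex, had means below 5 TPM and peaked at 11.5 and 11.6 h in the fit from 1 TPM, with adjusted p-values of 1.51e-05 and 1.40e-06.

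**Figure D3:**
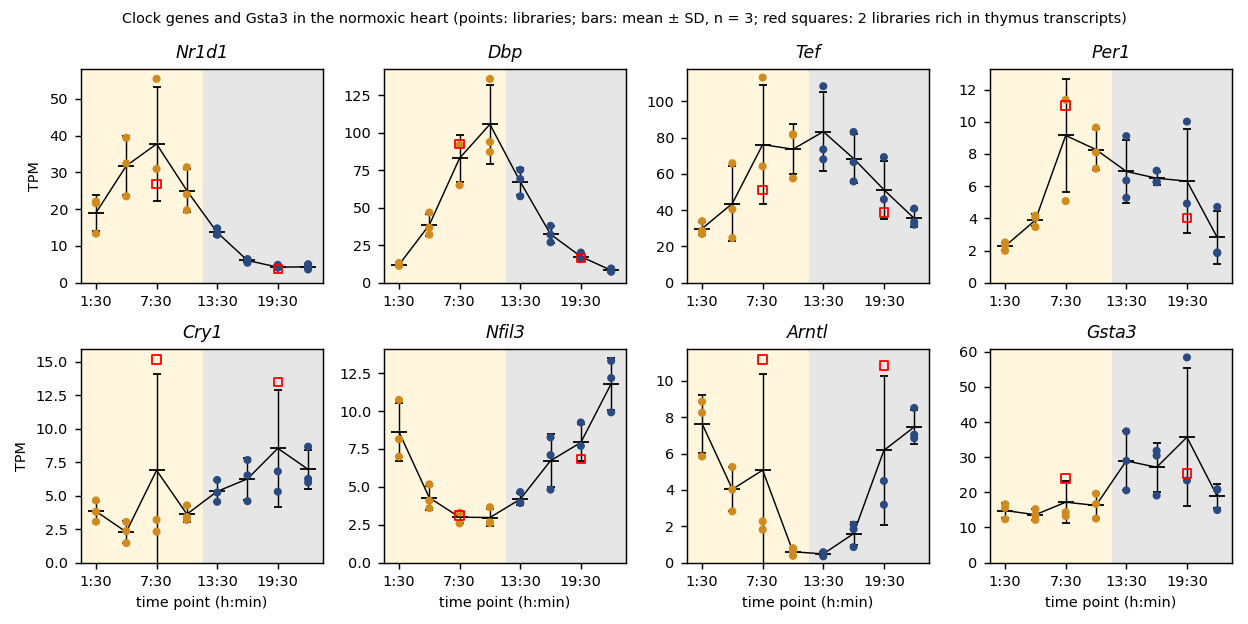
TPM of 7 clock genes and Gsta3 by time point, with 1 point per library, the mean ± SD of 3 libraries as bars, and the day window in yellow and the night window in grey. Nr1d1 is high within the day window, Dbp, Tef and Per1 straddle its end, and the 2 thymus-rich libraries (red squares) hold the highest Cry1 and Arntl values.

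The PAR bZIP factors and Nfil3, 4 genes, were all tested, 0 were called between the windows and 4 were called in the cosine fit. Dbp, an activator of D-box genes, had the highest amplitude of the tested genes called, 1.75, with a peak at 10.5 h (adjusted p = 3.35e-13 in limma). Its TPM ranged from 11.4 to 136 by day (median 55.9) and from 7.304 to 75.2 by night (median 23.5), and its time-point means rose from 12 TPM at 1:30 to 106 TPM at 10:30 before falling to 8.27 TPM at 22:30. The log2 difference of 0.88 ± 0.470 did not pass (adjusted p = 1.00). When each time point was given its own mean, so that the spread was taken within time points, Dbp and Nfil3 were among 8 genes called.

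Tef ranged from 24.7 to 113 TPM by day (median 54.4) and from 32 to 108 TPM by night (median 61.2), and Hlf from 1.77 to 9.17 TPM (median 4.74) and from 3.85 to 9.85 TPM (median 5.95). Their log2 differences, -0.17 ± 0.243 and -0.27 ± 0.204, did not pass, and their peaks at 12.6 and 13.2 h did (adjusted p = 0.000127 and 0.00268 in limma). Nfil3, a repressor at the same D-box sites, lay opposite to them. It ranged from 2.58 to 10.7 TPM by day (median 3.62) and from 3.92 to 13.31 TPM by night (median 7.39), with a peak at 21.4 h and an amplitude of 0.85 (adjusted p = 4.91e-06), and its log2 difference of -0.70 ± 0.225 did not pass (adjusted p = 0.869).

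Of the 8 genes listed as common circadian outputs, 6 were tested, 0 were called between the windows and 4 were called in the cosine fit. The 4 were Usp2, a deubiquitinase (peak 12.7 h, adjusted p = 0.000829 in limma), Tsc22d3, the glucocorticoid-induced GILZ (peak 14.4 h, adjusted p = 0.000468), the tetraspanin Tspan4 (peak 11.5 h, adjusted p = 1.05e-05) and the monooxygenase Fmo2 (peak 16.4 h, adjusted p = 0.0245). Fmo2 ranged from 6.69 to 20.7 TPM by day (median 13.8) and from 14.6 to 43.4 TPM by night (median 21.9), with a log2 difference of -0.80 ± 0.190 that did not pass (adjusted p = 0.202), and its wave was not called on TPM as deposited (adjusted p = 0.103). Fkbp5, a chaperone of the glucocorticoid receptor, and Pdk4, which shuts off glucose oxidation, had log2 differences of -0.52 ± 0.348 and 0.30 ± 0.207 and passed neither test over 24 libraries. Fkbp5, at 67.3 and 34.8 TPM in the thymus-rich libraries, passed the cosine test without them (adjusted p = 0.00831 in limma). Wee1 and Hif3a had means below 5 TPM.

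Beyond the clock lists, the largest amplitudes among called genes were those of Tcap and Slc41a3. Tcap, the titin cap protein of the sarcomere, ranged from 420 to 2019 TPM by day (median 966) and from 326 to 1215 TPM by night (median 609). Its wave peaked at 10.5 h with an amplitude of 0.88 (adjusted p = 0.000383 in limma), a fitted peak 3.37 times the trough. Slc41a3, a magnesium transporter of mitochondria, peaked at 1.94 h with an amplitude of 0.86 (adjusted p = 0.000124), and ranged from 4.30 to 19.5 TPM by day (median 10.1) and from 2.88 to 12.1 TPM by night (median 7.24).

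Heat shock chaperones, which refold proteins and are induced by warmth, were on the night side in each member tested. Of 20 members, 17 were tested and all 17 had a negative day-minus-night difference, from -0.74 to -0.02, with a median of -0.18 against -0.0049 for all genes. All 17 were also negative on TPM as deposited, under quantile normalization and without the 2 thymus-rich libraries. None of the 17 was called over 24 libraries, where 7 fell within 0.05 before adjustment, and 2 were called without the 2 libraries. Of all genes tested, 4.08% fell within 0.05 before adjustment over 24 libraries, and 0.151% were called without the 2. Night 13:30 replicate 2 stood apart in the inducible HSP70 genes, with 24.7 TPM of Hspa1a and 28 TPM of Hspa1b, and also had the highest Hsph1. Without it all 17 were negative too, with a median of -0.17 and 5 within 0.05 before adjustment, and without it and the 2 thymus-rich libraries 2 were called, Hsph1 at -0.61 (adjusted p = 0.0362 in limma) and Dnaja1 at -0.69 (adjusted p = 0.0447), in a fit added after the values were seen. Hsph1, a large partner of HSP70, ranged from 4.70 to 18.3 TPM by day (median 7.83) and from 7.74 to 31.3 TPM by night (median 13.33). Its log2 difference was -0.71 ± 0.149 (adjusted p = 0.0747 in limma), and -0.72 ± 0.149 without the 2 libraries (adjusted p = 0.0428), where the day values ended at 11.9 TPM. Dnaja1, a cochaperone of HSP70, ranged from 18.3 to 153 TPM by day (median 36.1) and from 34.7 to 142 TPM by night (median 55.2). Both maxima came from the thymus-rich libraries, and its log2 difference was -0.74 ± 0.209 with them (adjusted p = 0.492) and -0.80 ± 0.163 without them (adjusted p = 0.0416).

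Of the most abundant members, Hspa8 lay near the list's median and Hsp90ab1 near 0. Hspa8, the constitutive HSP70, ranged from 263 to 722 TPM by day (median 488) and from 422 to 780 TPM by night (median 490), a log2 difference of -0.19 ± 0.1004, and that of Hsp90ab1 was -0.03 ± 0.0723. Hspa1a, Hspa1b and Hsf2 had means below 5 TPM. Hspa1a ranged from 1.13 to 3.12 TPM by day (median 1.46) and from 1.55 to 24.7 TPM by night (median 3.05), and Hspa1b from 0.918 to 5.47 TPM (median 1.82) and from 1.54 to 28 TPM (median 3.55), so their windows overlapped. The heat shock element was searched on both strands in a strict form only. That form occurred in 0.514% of genes with a promoter window, and in 2 of the 13 chaperones with one, Hspd1 and Hspe1. These genes lie head to head and share it. Sites that depart from the strict form were not counted, so the other chaperones were not shown to lack the element.

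Both cold-inducible RNA-binding proteins, which rise in cells when temperature falls, went the other way. Cirbp ranged from 34.1 to 80.9 TPM by day (median 51.7) and from 26.7 to 67.3 TPM by night (median 37.5), with a log2 difference of 0.47 ± 0.120 that did not pass (adjusted p = 0.271 in limma). It was called when each time point had its own mean. Rbm3 ranged from 78.7 to 560 TPM by day (median 97.2) and from 58.8 to 215 TPM by night (median 75.6), with both maxima in thymus-rich libraries. In the other 22 libraries its ranges were 78.7 to 114 and 58.8 to 90.1 TPM, and its log2 difference was 0.32 ± 0.1102 (adjusted p = 0.36). In the cosine fit of the 22 libraries both were called, at adjusted p-values of 0.0436 for Cirbp and 0.00636 for Rbm3, and in that of all 24 neither was (0.0518 and 0.735), with peaks at 7.96 and 8.79 h.

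**Figure D4:**
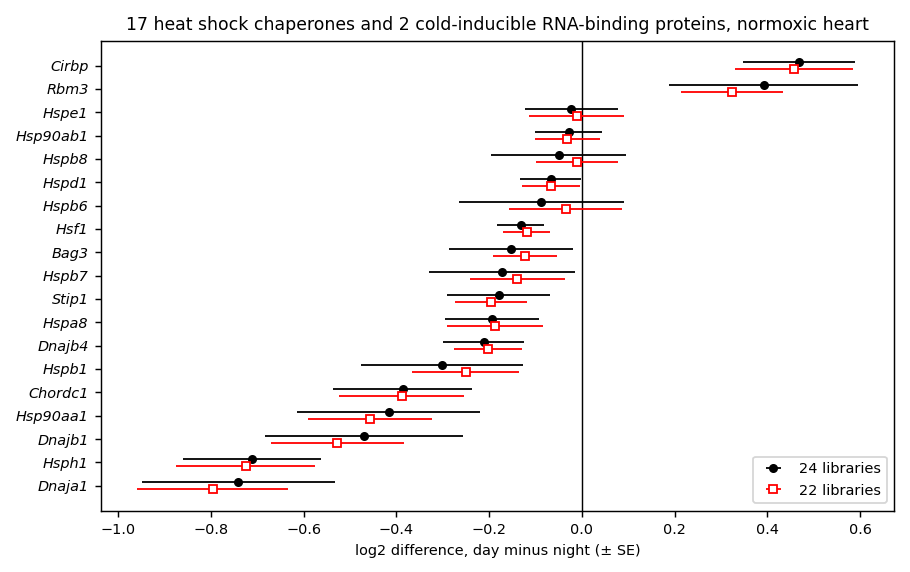
Log2 day-minus-night difference ± SE of the 17 heat shock chaperones and 2 cold-inducible RNA-binding proteins tested, over all 24 libraries (black) and over 22 without the thymus-rich libraries (red squares). All 17 chaperones lie left of 0, from -0.74 to -0.02 over 24 libraries, and Cirbp and Rbm3 lie right of it.

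Gsta3, a glutathione transferase, was the second gene in order of p. It ranged from 12.1 to 24 TPM by day (median 14.8) and from 14.9 to 58.4 TPM by night (median 24.3), with a log2 difference of -0.77 ± 0.144 and an adjusted p of 0.0504 in limma, and of 0.0203 without the 2 libraries. Its highest night values, 58.4 and 37.3 TPM, came from night 19:30 replicate 2 and night 13:30 replicate 3. Both libraries were rich in lung markers and stayed among the 22. The windows of Gsta3 overlapped between 14.9 and 24 TPM, and its wave peaked at 16.7 h (adjusted p = 0.00133). Of the 19 tested members of the redox and NAD list, it was the only one called in the cosine fit of either set of libraries, and the list's median difference was -0.0027. Gpx4 and Sod1, the most abundant members, differed by 0.04 ± 0.136 and 0.06 ± 0.0999.

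Angptl7, a secreted angiopoietin-like protein, had the largest difference among the night-high genes called without the 2 libraries. It ranged from 3.26 to 9.25 TPM by day (median 4.66) and from 6.29 to 20.7 TPM by night (median 10.2), a log2 difference of -0.94 ± 0.196 (adjusted p = 0.0747 in limma over 24 libraries and 0.0203 over 22). Tmem86a, a lysoplasmalogenase, ranged from 7.02 to 15.8 TPM by day (median 11.4) and from 5.55 to 10.5 TPM by night (median 8.26). Its log2 difference of 0.38 ± 0.0802 had adjusted p-values of 0.0747 and 0.0194, and its peak at 7.54 h was close to that of Nr1d1.

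Glucocorticoid and FOXO targets were mostly higher at night. Of 25 members, 21 were tested, 15 were higher at night and 6 by day, with a median of -0.17, and 7 fell within 0.05 before adjustment. Over all genes tested, 4159 of 7966 were higher at night and 4.08% fell within 0.05 before adjustment. None of the 21 was called between the windows. In the cosine fit 5 were called, Per1, Tsc22d3, Cdkn1a, Mt2 and Sesn1, of which Per1 and Tsc22d3 stand on a clock list too, and 9 were called without the 2 thymus-rich libraries, the others being Ddit4, Fkbp5, Klf9 and Zbtb16. The same fits called 0.678% and 2.2% of all genes tested. Cdkn1a, an inhibitor of cell cycle kinases, peaked at 21.9 h (adjusted p = 0.000375 in limma) and Mt2, a metallothionein, at 10.9 h (adjusted p = 0.0156), so these targets did not share a phase. The most abundant members, Mt1 and Trim63, had log2 differences of -0.18 ± 0.190 and 0.15 ± 0.158.

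No gene of the lists for contraction, heart rhythm and fuel use was called between the windows. Of 22 sarcomere and Z-disc genes, 13 were higher by day and 9 by night, with a median of 0.04, and Tcap was the only one called in the cosine fit. The split was 18 and 4 without the 2 thymus-rich libraries, with a median of 0.0979, and 10 and 12 under quantile normalization, with a median of -0.0203. Myl2 and Tnnt2, the most abundant, differed by 0.06 ± 0.193 and -0.06 ± 0.163. Of 22 ion channel and calcium handling genes tested, 9 were higher by day, with a median of -0.06, and 0 were called in either test over 24 libraries. Over 22 libraries the cosine fit called Gja1, the ventricular connexin 43 (peak 0.923 h over 24 libraries, adjusted p = 0.00694 over 22 in limma), and Klf15, a regulator of potassium channel rhythm (peak 13.8 h, adjusted p = 0.0189). Pln and Atp2a2, which control calcium uptake into the sarcoplasmic reticulum, differed by -0.01 ± 0.173 and -0.06 ± 0.171.

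All 6 natriuretic peptides and receptors were higher at night, with a median of -0.19, and 0 were called. On TPM as deposited, and without the 2 thymus-rich libraries, 5 of the 6 were higher at night and again 0 were called. Nppa, an atrial hormone in the adult, ranged from 195 to 3208 TPM by day (median 1971) and from 1257 to 5795 TPM by night (median 1951). It is also 1 of the 6 atrium markers, whose sum ranged from 340 to 5978 TPM by day and from 2107 to 10885 TPM by night, and its part in the result was not tested. Of 12 genes of adrenergic and cholinergic signalling tested, 8 were higher at night, with a median of -0.07, and 0 were called in either test.

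The fatty acid and glucose lists stayed near the median of all genes. Of 35 genes of fatty acid uptake, storage and oxidation tested, 18 were higher by day and 17 by night, with a median of 0.01 (8 and 27 under quantile normalization), and 0 were called in either test. Fabp3 and Fabp4, carriers of fatty acids in muscle cells and in capillary and fat cells, differed by 0.04 ± 0.173 and 0.05 ± 0.147. Of 27 genes of glucose uptake, glycolysis and glycogen tested, 12 were higher by day, with a median of -0.01, and Ppp1r3c, a scaffold for glycogen synthesis, was called in the cosine fit of the 22 libraries alone (adjusted p = 0.00813 in limma, against 0.549 over 24). Insulin and growth signalling (8 tested, 7 higher at night, median -0.05) and autophagy and mitophagy (12 tested, 9 higher at night, median -0.03) held 0 called genes between the windows. So did the hypoxia pathway (13 tested, 11 higher at night, median -0.07) and ER chaperones (15 tested, 8 higher at night, median -0.01). Egln3, an oxygen-sensing prolyl hydroxylase (peak 21.3 h, adjusted p = 0.0383), and Herpud1, a protein of ER-associated degradation (peak 14.8 h, adjusted p = 0.00322), were called in the cosine fit. Without the 2 thymus-rich libraries 4 of the 15 ER chaperones were called, Manf, Pdia4 and Xbp1 (adjusted p = 0.0346, 0.00788 and 0.0488 in limma) beside Herpud1. That fit called 2.2% of all genes tested.

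Small shifts, mostly of one sign, ran through lists of abundant transcripts, and some turned with the scaling. All 20 cytosolic ribosomal protein genes were higher by day, with a median of 0.12 and a range from 0.01 to 0.16 (16 of 20 under quantile normalization), and all 13 mitochondrially encoded subunits were higher at night, with a median of -0.20 and a range from -0.38 to -0.03 (10 of 13 under quantile normalization). Of 20 nuclear respiratory chain subunits, 17 were higher by day, with a median of 0.04, but 5 were under quantile normalization, with a median of -0.03. None of these genes was called in either test or reached 0.05 before adjustment. The mitochondrial share of TPM ranged from 20.7% to 44.7% between libraries, and its part in the result was not tested.

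Of 16 collagen and matrix genes tested, 11 were higher by day, with a median of 0.11 over 24 and 0.17 over 22 libraries, and 0 were called between the windows. Over 22 libraries the cosine fit called 3, namely Loxl1 and Eln, an elastin-linking enzyme and elastin itself (peaks at 1.12 and 0.15 h over 24 libraries), and Timp3, a protease inhibitor (peak 14.3 h). That fit called 2.2% of all genes tested. Of 15 SR splicing factors and CLK kinases, 11 were higher at night, with a median of -0.09. Srsf5 went against them, with a log2 difference of 0.35 ± 0.123 and an unadjusted p of 0.00899 (adjusted p = 0.946 in limma). Of 15 immediate early genes tested, 8 were higher at night, with a median of -0.01, and 4 fell within 0.05 before adjustment (Jun, Junb, Klf4 and Ccn2, named after their values were seen). Before adjustment, 4.08% of all genes tested fell within 0.05. Of 10 cell cycle genes tested, 6 were higher by day, with a median of 0.10, and Pcna ranged from 23 to 284 TPM by day and from 20.2 to 167 TPM by night, with both maxima in thymus-rich libraries. Of the 11 clock kinases and ubiquitin enzymes tested, 9 were higher at night, with a median of -0.05, and Usp2, which also stands on the output list, was the only one called in the cosine fit.

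The day-night difference of the normoxic heart was then set against that of the heart after IH, with an interaction term across all 7966 genes. The test called 0 genes (0%) in limma, with 79 (0.992%) below 0.05 before adjustment. No other tool was run. The log2 difference of Nr1d1 was 1.99 ± 0.247 in normoxia and 2.10 ± 0.291 after IH, a difference between them of -0.12 ± 0.394. That of Cry1 was -0.82 ± 0.171 and -0.86 ± 0.136, that of Hsph1 -0.71 ± 0.149 and -0.65 ± 0.165, and that of Cirbp 0.47 ± 0.120 and 0.47 ± 0.131. Dbp, at 0.88 ± 0.470 and 1.39 ± 0.513, and Angptl7, at -0.94 ± 0.196 and -0.63 ± 0.194, differed more between the sets, but neither interaction was called. A p that misses the threshold does not show that the 2 sets were alike, and the heart after IH also held libraries with thymus markers of up to 311 TPM.

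Against the muscle in normoxia, 2 of 7415 genes (0.027%) differed in their day-night difference, and 139 (1.87%) fell within 0.05 before adjustment. Arrdc3, an arrestin-like adaptor that acts on adrenergic receptors, ranged in the heart from 6.16 to 11.8 TPM by day (median 7.82) and from 6.14 to 10.3 TPM by night (median 7.19). In the muscle it ranged from 9.64 to 20.1 TPM by day (median 13.8) and from 17.5 to 39.3 TPM by night (median 24.7). The heart windows overlapped almost fully, those of the muscle at 17.5 to 20.1 TPM. The log2 differences were 0.07 ± 0.0776 in the heart and -0.82 ± 0.114 in the muscle, and the interaction was 0.89 ± 0.140 (adjusted p = 0.00055 in limma).

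Znhit6, an assembly factor of small nucleolar ribonucleoproteins, ranged in the heart from 5.84 to 11.4 TPM by day (median 7.62) and from 5.38 to 8.15 TPM by night (median 6.35), and in the muscle from 5.88 to 12.1 TPM by day (median 9.72) and from 9.47 to 12.6 TPM by night (median 10.4). Its log2 differences were 0.24 ± 0.052 and -0.08 ± 0.0472, and the interaction of 0.32 ± 0.0665 was at the edge of the threshold (adjusted p = 0.0497 in limma). It did not pass on TPM as deposited, with a pseudocount of 1 or with genes from a mean of 1 TPM. For the clock genes no interaction was called, with Nr1d1 at 1.99 ± 0.247 in the heart and 2.35 ± 0.205 in the muscle, Cry1 at -0.82 ± 0.171 and -0.69 ± 0.0853, and Nfil3 at -0.70 ± 0.225 and -1.26 ± 0.174. The libraries of the 2 tissues were taken as independent, although the labels do not say whether they came from the same mice.

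**Figure D5:**
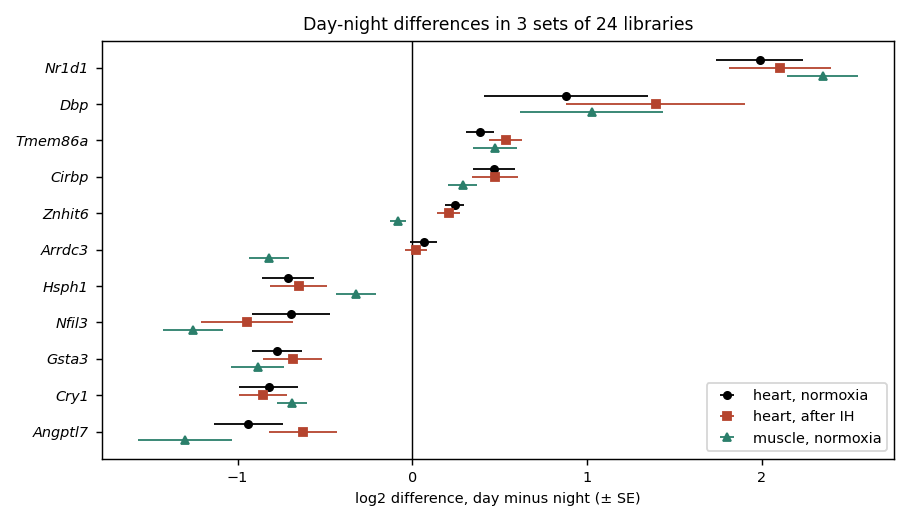
Log2 day-minus-night difference ± SE of 11 genes in the heart in normoxia (black circles), the heart after IH (red squares) and the muscle in normoxia (green triangles), 24 libraries each. Nr1d1 lies between 1.99 and 2.35 in all 3 sets, and Arrdc3 lies near 0 in both hearts and at -0.82 in the muscle.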

How the data were processed

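The submitters' processing notes name bcl2fastq, FastQC 0.11.3, kallisto, DESeq2 and the build mm10. Trizol RNA was enriched for poly(A), made into directional libraries, and quantified by the authors with kallisto against the Ensembl transcriptome, transcripts being summed to genes. The deposited values are TPM per gene and library, a unit scaled to a fixed sum (996859 to 998873 TPM here). The paper gives a median of mapped reads over all samples, but the read depth of each library, and with it the counting precision of each value, is unknown. The estimated counts that DESeq2 needs were not used here.

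Tables of the heart in normoxia, the heart after IH and the muscle in normoxia were used, with groups and hours from the sample titles. The day window is the part of the 24 hours before 12 h. Each library was rescaled by median-of-ratios size factors, 0.5 TPM was added as a pseudocount, and log2 was taken. Limma 3.58.1 (R 4.3.3), with an intensity trend, tested window alone, a 24-hour cosine (F test), and the interaction of window with IH or with tissue, each with Benjamini-Hochberg adjustment over all genes tested. Summed markers were compared by permutation. Tests were 2-sided (scipy 1.17.1, numpy 2.4.6, pandas 2.3.3, Python 3.11.15; figures with matplotlib 3.10.9). Scripts were tested on simulated data. Positions are from GENCODE mouse release 21 (GRCm38) and promoters from RefSeq. Each library was taken as 1 mouse, and 0 libraries held identical values.

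The members and the gene lists were chosen with earlier results of these data known. Predicted genes, clones and pseudogenes were left out of the ranking (0 were called). The genes named are called genes of the window test (up to 10 per direction), all members of 4 clock and output lists (1 is not reported here), up to 4 called or 2 abundant members of each other list, the 6 largest amplitudes called by the cosine fit alone, and up to 6 called interactions. Others are named after their values were seen. Alternatives covered scaling, pseudocounts of 0.1 and 1, filters at a mean of 1 or 10 TPM or none, quantile normalization, array weights, no trend, the number of genes detected, a mean per time point, the replicate block, and leaving out replicates, libraries or time points. Leaving out the thymus- or lung-rich libraries or, with the former, night 13:30 replicate 2, and the alternatives for the marker sums, were chosen after seeing the data.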

Additional observations from a re-analysis of the deposited data

Results flagged for a closer look

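The day-night difference of the heart differed from that of the muscle in normoxia in 2 genes, by the interaction term in limma. For Arrdc3 the heart's log2 day-minus-night difference exceeded that of the muscle by 0.89 ± 0.140 (adjusted p = 0.00055). The difference lay between 0.84 and 0.99 under the 12 alternatives and remained called under 10 of them, the exceptions being those without replicate 1 (adjusted p = 0.168) and without replicate 2 (adjusted p = 0.0574). For Znhit6 the heart's difference exceeded that of the muscle by 0.32 ± 0.0665 (adjusted p = 0.0497), between 0.27 and 0.42 under the alternatives, with 5 of the 12 called.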

How the results depend on the processing

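The count of genes called between the windows, 1 of 7966, was 2 with genes from a mean of 1 TPM, 2 from 10 TPM and 2 with no filter, 8 with a mean for each time point and 23 with array weights, of which 10 were among the 12 called without the 2 thymus-rich libraries. It was 2 without 1:30, 2 without 7:30, 4 without 10:30 and 2 without 22:30. Without the 2 thymus-rich libraries it was 12, with the replicate block added 8, and with genes from 1 TPM 15, without the 4 thymus- or lung-rich libraries 8, and without the 2 and night 13:30 replicate 2 it was 9. Leaving out 1 replicate number or 1 library gave 0 to 7, with 0 without replicate 1 or replicate 2 and 7 without day 7:30 replicate 3. Nr1d1 was called in 50 of 52 alternatives, at 1.76 to 2.38, the exceptions being without replicate 1 (adjusted p = 0.0655 in limma) and without replicate 2 (0.0642). The cosine count of 54 was 27 on TPM as deposited (26 shared), 86 from 1 TPM, 175 without the 2 libraries, 171 with the replicate block added, 299 from 1 TPM without them, 161 without the 4, and 8 to 26 without 1 replicate number. The 2 interactions with the muscle were 1 on TPM as deposited, 1 with a pseudocount of 1, 1 from 1 TPM (1 also without the 2 libraries) and 0 to 1 without 1 replicate number. The interaction with IH gave 0 in all alternatives. The replicate block alone gave 1 called gene between the windows and 55 in the cosine fit. The numbers do not name shared mice, so the block was not read as a pairing. Deviations from time-point means had a median r of 0.05 over 84 pairs with the same number, 36 of them above 0.1. Over 168 other pairs the median was -0.03, with 46 above 0.1. A batch that follows the numbers was not tested. Some small differences changed sign. Per1 turned to 0.16 under quantile normalization, 0.000924 with array weights, 0.0314 with genes detected as a term, 0.0357 without the 4 libraries, 0.30, 0.0667, 0.13 and 0.098 without 1:30, 4:30, 13:30 and 16:30, and ranged from -0.14 to 0.0784 when 1 replicate number or library was left out. Tef turned to 0.0695 and 0.0425, and Usp2 to 0.0433 and 0.00255, without 1:30 and 13:30, Hlf to 0.00373 under quantile normalization, and Tspan4 to -0.11 and -0.0499 without 10:30 and 22:30. The cause was not tested. The median of all genes moved from -0.0049 to 0.0147 on TPM as deposited.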
